A study of Mus musculus with 8 samples.

Results

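The net state of RAW 264.7 cells, an established mouse macrophage line, after menthol and lipopolysaccharide (LPS) together was read from 2 arrays labelled LPS and menthol (LPS+M), set against 2 arrays labelled control. They are 4 of the 8 arrays of the series, and the other arrays, 2 of menthol alone (M) and 2 of LPS alone (LPS), served to show where LPS+M cells differed from cells given 1 agent. LPS+M cells had menthol for 1 h before LPS at 100 ng/ml for 6 h, M cells had menthol without LPS, LPS cells had a control treatment for 1 h before the same LPS, and control cells had the control treatment without LPS. All 4 groups are the same cell line, so no primary macrophage was measured. The labels used here do not say what the control treatment held, give no menthol dose and give no harvest time for the M and control cells, so treatment and time in culture cannot be told apart. Arrays of a group are labelled as biological replicates, with no separate cultures named, so a p-value reflects just how far these arrays vary, possibly for technical reasons alone.

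Each of 18193 genes was represented by 1 probe set, the one with the highest mean over the 8 arrays among those with a single gene symbol. The test covered the 8908 genes whose mean log2 signal exceeded 4.84, the average over every probe set. A gene was called when its limma p, adjusted by Benjamini-Hochberg over the 8908 genes of a comparison, was under 0.05 and its change was at least 1.5-fold. Each ± gives the standard error from that fit, with n = 2 arrays per group throughout. The array medians lay between 2.99 and 3.04, and arrays sharing a group correlated at 0.9988 to 0.9994 over probe sets, which do not count as independent replicates. On the first principal component, with 48.3% of the variance, the LPS+M arrays scored -7.24 and -7.41, between the LPS arrays at -20.82 and -22.34 and the control arrays at 10.99 and 10.78. On the second, with 36.9%, they scored 19.02 and 17.46, the far end from the control arrays at -16.70 and -16.64. All 14 macrophage markers were above the filter, with gene means of 8.76 to 15.49, and their mean signal per array was 12.80 to 12.89 in LPS+M cells and 12.85 to 12.90 in control cells. Of these markers, Fcgr1 and Mertk, receptors for IgG and for apoptotic cells, were called lower in LPS+M than in control, at -0.73 ± 0.10 and -0.61 ± 0.07 on the log2 scale, and the others were not called. Mertk was -0.56 without LPS+M replicate 1 and -0.57 without control replicate 2, both under 1.5-fold. Of the markers of T, B, NK, mast, epithelial and endothelial cells, neutrophils and fibroblasts, the T cell gene Cd5 alone lay above the filter, with a gene mean of 7.93.

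Lipopolysaccharide is sensed by Toll-like receptor 4 and drives macrophages, through NF-κB and secreted type I interferon, to make cytokines, chemokines and antimicrobial products, together with inhibitors that end the response. Menthol is a plant terpenoid best known for opening the cold-sensing channel TRPM8. Cells short of amino acids or under oxidative or endoplasmic reticulum stress translate the transcription factor ATF4, which raises genes of amino acid uptake and synthesis, a program called the integrated stress response.

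Of the 8908 genes tested, 493 (5.53%) were higher and 383 (4.30%) were lower in LPS+M cells than in control cells. Macrophage activation genes and stress response genes were among the higher ones, and genes of DNA replication were among the lower ones. Of the 493 higher genes, 6 had a mean under the filter over the other 3 groups, and so were tested through their LPS+M arrays. They were Pstpip2, Tnfaip3, Cebpa, Ccnd2, Cd83 and Maff. The median log2 fold change of all tested genes was 0.0044, and the middle 50% of genes lay between -0.17 and 0.18.

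Acod1, whose product makes the antimicrobial metabolite itaconate, had the largest rise. Its log2 signals were 10.79 and 10.66 in LPS+M cells, 3.64 and 3.83 in M cells, 11.08 and 11.06 in LPS cells and 4.24 and 4.61 in control cells. The LPS+M arrays stood 78.5-fold above control on average, or 6.29 ± 0.12 on the log2 scale (adjusted p = 3.76e-07), with no overlap between the groups. Gpr18, a G protein-coupled receptor of leukocytes, had 8.64 and 8.23 in LPS+M cells, 5.30 and 5.85 in M cells, 7.30 and 7.30 in LPS cells and 3.71 and 3.52 in control cells, so the LPS+M arrays were the highest of the 8. It rose by 4.82 ± 0.19 (adjusted p = 3.53e-06). Slc7a11, the cystine carrier of the glutathione supply line, had 10.88 and 10.79 in LPS+M cells, 9.44 and 9.40 in M cells, 8.65 and 8.64 in LPS cells and 6.24 and 6.63 in control cells, again with the LPS+M arrays highest and the control arrays lowest. It rose by 4.40 ± 0.12 (adjusted p = 1.08e-06), and by 2.74 when all its probe sets were averaged.

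Cd83, a surface protein of mature antigen-presenting cells, had 8.10 and 8.37 in LPS+M cells, 4.79 and 5.17 in M cells, 5.0 and 5.03 in LPS cells and 3.93 and 4.36 in control cells. Its 2 LPS+M arrays lay apart from all 6 others, and it rose by 4.09 ± 0.17 (adjusted p = 4.84e-06), while M stood 0.83 ± 0.17 and LPS 0.87 ± 0.17 above control. Saa3, an acute-phase serum amyloid A, had 10.84 and 10.63 in LPS+M cells, 7.33 and 7.10 in M cells, 12.23 and 12.36 in LPS cells and 7.06 and 7.16 in control cells. Its LPS+M arrays were far above control and below LPS, and it rose by 3.62 ± 0.11 (adjusted p = 1.29e-06).

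The other genes among the 12 largest rises were Tpbg, a membrane glycoprotein, at 3.91 ± 0.14, Pstpip2, an F-BAR protein of myeloid cells, at 3.58 ± 0.19, and Traf1, an adaptor of tumor necrosis factor receptors, at 3.45 ± 0.22. Socs3, which blocks signaling from cytokine receptors, rose by 3.22 ± 0.12. Zc3h12c and Zc3h12a, which encode related ribonucleases that degrade inflammatory mRNAs, rose by 3.10 ± 0.08 and 3.0 ± 0.19. Bcl3, a nuclear partner of NF-κB subunits, rose by 2.97 ± 0.12. The adjusted p of these 7 genes lay between 1.08e-06 and 2.42e-05. Other probe sets of Pstpip2, all under the filter, gave 2.47 and 0.03, and another of Traf1, also under it, gave 0.26. Zc3h12a had 1.46 when its probe sets were averaged, and the methods' t-test, an unpaired test for unequal variances at an unadjusted p under 0.05, did not call Traf1 or Zc3h12a.

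Klf2, which encodes a factor holding macrophages quiescent, had the largest fall. Its log2 signals were 4.08 and 4.17 in LPS+M cells, 4.34 and 4.26 in M cells, 5.55 and 5.5 in LPS cells and 6.88 and 6.22 in control cells, so it was low wherever menthol was given and intermediate in LPS cells. It fell by 2.43 ± 0.18 in LPS+M compared to control (adjusted p = 5.53e-05). Ung, the uracil glycosylase that clears uracil from DNA, had 6.88 and 6.91 in LPS+M cells, 7.85 and 8.04 in M cells, 8.63 and 8.72 in LPS cells and 9.17 and 9.08 in control cells, the LPS+M arrays being the lowest, and fell by 2.23 ± 0.08 (adjusted p = 2.48e-06). Maf, a transcription factor of resting and resolving macrophages, had 9.11 and 9.47 in LPS+M cells, against 11.54 and 11.49 in control cells, with no overlap, and fell by 2.23 ± 0.11 (adjusted p = 1.09e-05).

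The remaining 9 of the 12 largest falls had log2 fold changes between -2.17 and -1.81. Ccne2, Cdc6 and Wdhd1 act at the start of DNA synthesis. Rasgrp3 activates Ras proteins, and Rap2a is a small GTPase. Klhl6 is a substrate adaptor of a ubiquitin ligase, Pram1 is a myeloid adaptor and Cd244a is a receptor of the SLAM family. Rab3il1 fell by 1.94 ± 0.09, and by 1.12 with the mean of its probe sets, while Rap2a fell by 1.84 ± 0.08, and by 0.91 with that mean. The methods' t-test did not call Klf2 or Ccne2.

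**Figure D1:**
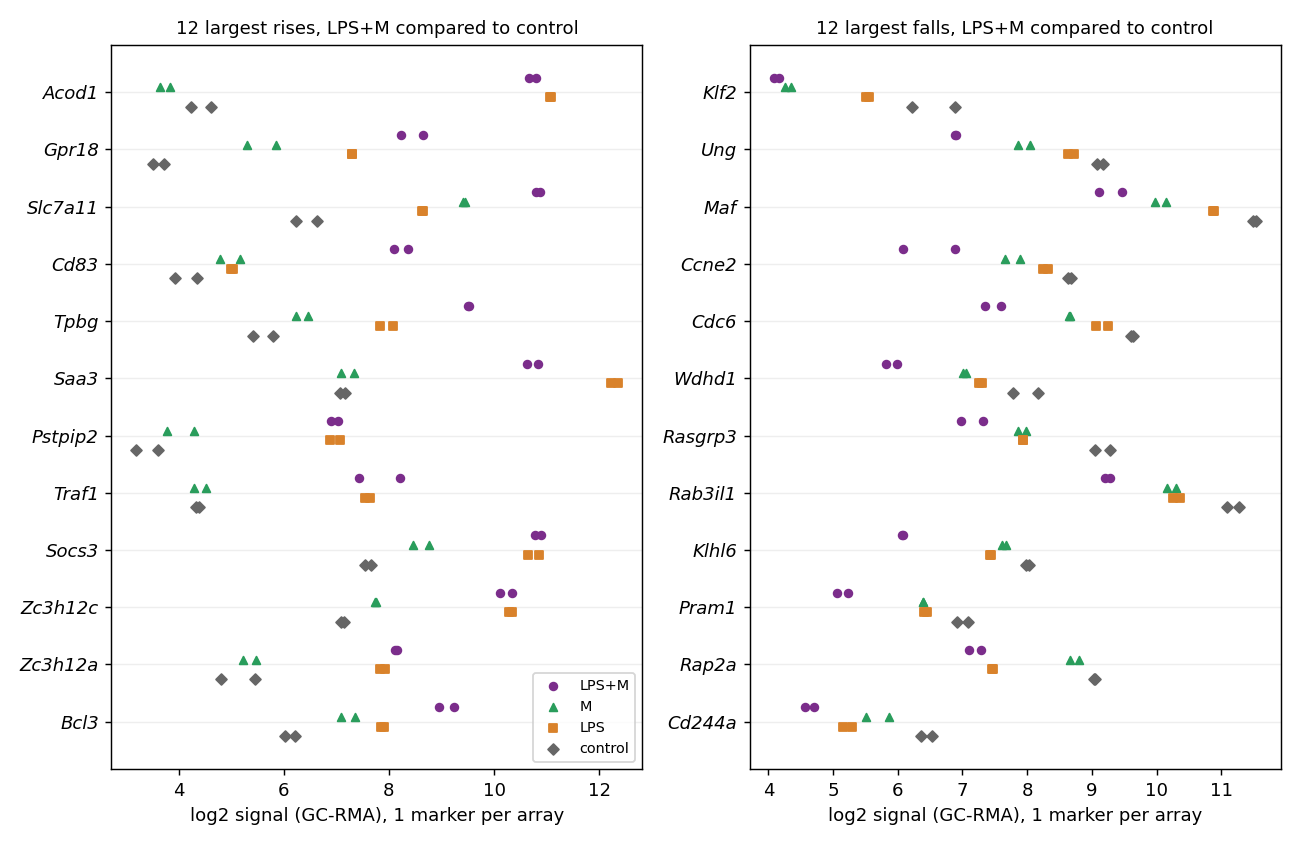
Log2 GC-RMA signal (x axis) of the 12 genes with the largest rise and the 12 with the largest fall in LPS+M compared to control, with 1 marker for each of the 8 arrays. Acod1 lies at 10.79 and 10.66 in LPS+M cells against 4.24 and 4.61 in control cells, and the LPS+M markers of Cd83, Tpbg, Bcl3, Cdc6 and Klhl6 lie beyond those of the other groups.

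The promoters of 4 genes that the results return to are printed here to show the sequences beside the values. They come from RefSeq on build GRCm38.p6 and run from 250 bases before to 50 bases after the annotated start, and capitals mark matches to a motif found by script on either strand. The motifs were TGATGNAA, the core of the element read by ATF4 with CEBP partners, for Slc7a11 (chr3:50443564-50443863, minus strand) and Trib3 (chr2:152344011-152344310, minus strand), the NF-κB consensus for Bcl3 (chr7:19822706-19823005, minus strand), and TTTNNCGC, a form of the E2F element, for Cdc6 (chr11:98907901-98908200, plus strand).
Slc7a11: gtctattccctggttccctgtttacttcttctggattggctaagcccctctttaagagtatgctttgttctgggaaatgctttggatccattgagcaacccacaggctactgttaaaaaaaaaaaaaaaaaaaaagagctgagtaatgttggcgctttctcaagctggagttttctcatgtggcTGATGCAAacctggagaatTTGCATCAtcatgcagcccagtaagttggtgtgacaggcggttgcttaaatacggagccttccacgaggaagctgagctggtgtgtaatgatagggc
Trib3: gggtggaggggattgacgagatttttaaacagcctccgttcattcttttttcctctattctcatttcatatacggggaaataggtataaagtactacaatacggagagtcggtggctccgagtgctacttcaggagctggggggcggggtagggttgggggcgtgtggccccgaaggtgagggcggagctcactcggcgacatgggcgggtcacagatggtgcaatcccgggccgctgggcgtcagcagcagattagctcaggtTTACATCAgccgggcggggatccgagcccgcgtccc
Bcl3: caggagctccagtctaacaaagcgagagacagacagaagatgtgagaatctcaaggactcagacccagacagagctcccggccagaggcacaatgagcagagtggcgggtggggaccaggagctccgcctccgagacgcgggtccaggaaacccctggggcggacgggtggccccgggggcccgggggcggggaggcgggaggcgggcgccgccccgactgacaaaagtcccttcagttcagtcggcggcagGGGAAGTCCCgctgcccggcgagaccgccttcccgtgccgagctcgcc
Cdc6: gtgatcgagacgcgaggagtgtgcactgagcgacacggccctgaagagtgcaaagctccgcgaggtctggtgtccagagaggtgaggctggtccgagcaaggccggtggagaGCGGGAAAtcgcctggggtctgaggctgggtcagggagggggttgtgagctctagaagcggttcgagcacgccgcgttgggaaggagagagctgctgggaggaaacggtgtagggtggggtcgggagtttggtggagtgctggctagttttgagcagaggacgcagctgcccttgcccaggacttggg

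Counted from the first transcribed base as 1, the matches began at -66 and -47 in Slc7a11, at 15 in Trib3, at 3 in Bcl3 and at -138 in Cdc6. Of 27025 RefSeq promoters of this length, 4.06% held TGATGNAA, 8.18% the NF-κB consensus and 5.27% TTTNNCGC. A match describes the letters and does not show that a factor was bound.

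The genes below were grouped in 32 lists, and each list is described by its counts and its median, beside 5.53% higher, 4.30% lower and a median of 0.0044 over all tested genes. The comparisons of LPS+M, of M and of LPS with control use the same control arrays, so their values stand side by side and no overlap is drawn from them. In M compared to control 3.01% of genes were called higher and 1.54% lower, and in LPS compared to control 3.17% higher and 2.96% lower. In the direct tests, 4.22% were higher and 2.49% lower in LPS+M than in LPS, and 2.39% were higher and 1.77% lower in LPS+M than in M.

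**Figure D2:**
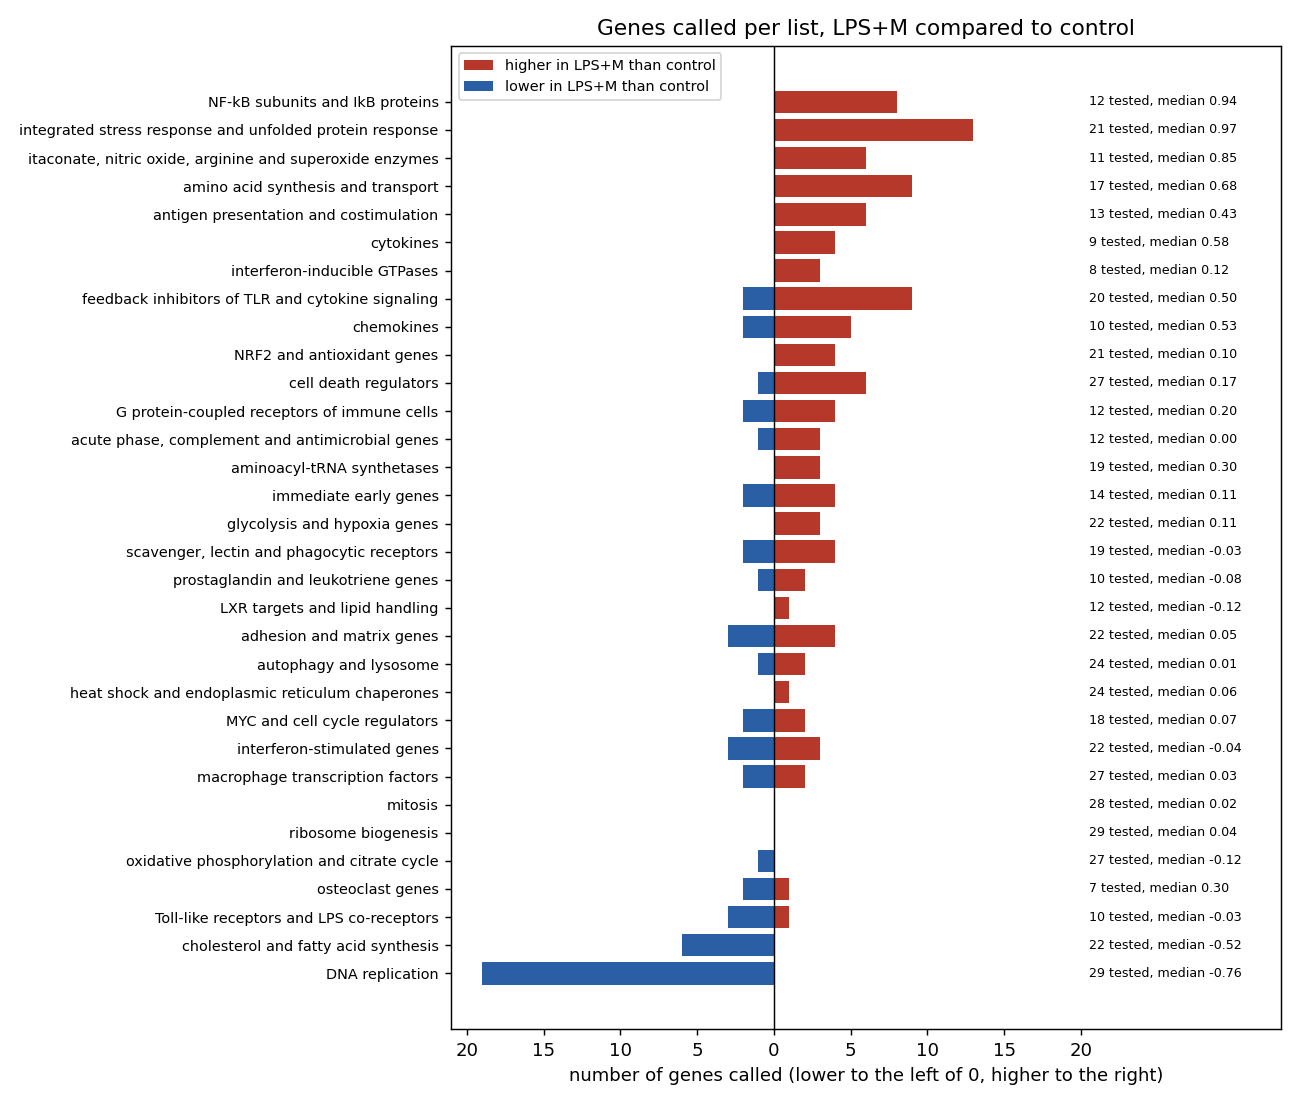
Number of genes called higher (right of 0) and lower (left of 0) in LPS+M than in control for each of 32 gene lists, with the number tested and the median log2 fold change at the right. DNA replication has 19 lower genes of 29, the stress response list 13 higher of 21, and mitosis and ribosome biogenesis have none in either direction.

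Genes of the NF-κB pathway were higher as a group in LPS+M cells. The list held NF-κB subunits, cytoplasmic and nuclear IκB proteins, and IκB kinase genes such as Ikbke and Ikbkg. Of its 12 genes, 8 rose, none fell and the median was 0.94 in LPS+M, against 0.14 in M and 0.89 in LPS. Nfkbiz, an atypical IκB that works in the nucleus, had 11.74 and 11.90 in LPS+M cells, 9.14 and 9.17 in M cells, 11.63 and 11.88 in LPS cells and 8.96 and 8.86 in control cells. The LPS+M and LPS arrays of Nfkbiz overlapped, and both lay above M and control. It rose by 2.91 ± 0.10 in LPS+M compared to control (adjusted p = 2.18e-06), and by 1.88 when its probe sets were averaged. A second Nfkbiz probe set above the filter gave 0.045, and another under it gave 2.69, so its rise depends on the probe set. Bcl3 had 9.23 and 8.94 in LPS+M cells, 7.09 and 7.36 in M cells, 7.85 and 7.91 in LPS cells and 6.21 and 6.01 in control cells, and here the LPS+M arrays lay above every other array. Ikbke, a kinase of the interferon pathway, rose by 1.53 ± 0.08, Nfkb2, which encodes the p100 subunit, by 1.49 ± 0.11, and its partner Relb by 1.48 ± 0.10. Compared directly with LPS, 1 gene of this list was higher in LPS+M and 3 were lower. The NF-κB consensus was in 5 of the 9 promoters of this list that RefSeq gave.

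Among 20 feedback inhibitors of the same signaling, 9 rose and 2 fell, with a median of 0.50, and by the methods' t-test 4 rose and 1 fell. The NF-κB consensus was in 4 of the 18 promoters of these inhibitors that RefSeq gave. Tnip1, which restrains NF-κB with the ubiquitin editor A20, had 11.76 and 11.66 in LPS+M cells, against 9.43 and 9.54 in control cells, and rose by 2.23 ± 0.07 (adjusted p = 1.29e-06). Tnfaip3, the gene for A20 itself, had 5.52 and 4.77 in LPS+M cells, 3.35 and 3.40 in M cells, 7.83 and 7.44 in LPS cells and 3.12 and 3.71 in control cells. It rose by 1.73 ± 0.27 (adjusted p = 0.00205), and its LPS+M arrays lay well below the LPS arrays, by 2.49 ± 0.27 (adjusted p = 0.000669). Dusp1, a phosphatase of MAP kinases, had 10.42 and 10.42 in LPS+M cells, against 12.07 and 11.42 in control cells, and fell by 1.32 ± 0.18 (adjusted p = 0.00112). The other gene that fell was Zfp36l1, an mRNA decay factor, at -0.85 ± 0.06.

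Receptors for microbial products moved in both directions. Of 10 Toll-like receptors and co-receptors, 1 rose and 3 fell, with a median of -0.03. Tlr2, the receptor for bacterial lipopeptides, had 13.82 and 13.81 in LPS+M cells, 12.10 and 11.98 in M cells, 13.27 and 13.29 in LPS cells and 11.50 and 11.61 in control cells, the LPS+M arrays being highest, and rose by 2.26 ± 0.07 (adjusted p = 1.29e-06). Tlr4, the receptor for LPS, had 10.48 and 10.74 in LPS+M cells, 11.62 and 11.54 in M cells, 11.007 and 11.002 in LPS cells and 11.54 and 11.62 in control cells. It fell by 0.97 ± 0.09 (adjusted p = 0.000189), with its LPS+M arrays below the other 6. Cd180, a relative of Tlr4, fell by 0.93 ± 0.10, and Tlr13, a sensor of bacterial ribosomal RNA, by 0.71 ± 0.07. Tlr1, a partner of Tlr2, had 8.71 and 8.73 in LPS+M cells, against 8.53 and 8.44 in control cells, and was not called (0.23 ± 0.08, adjusted p = 0.0532), while LPS stood 1.26 ± 0.08 above control. The methods' t-test did not call Tlr4.

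Cytokine genes rose in part. Of 9 tested cytokine genes, 4 rose and none fell, with a median of 0.58. Tnf, the early cytokine of the LPS response, had 10.65 and 10.54 in LPS+M cells, 8.43 and 8.31 in M cells, 10.93 and 10.92 in LPS cells and 8.29 and 8.55 in control cells. It rose by 2.17 ± 0.10 (adjusted p = 5.67e-06), and LPS+M differed from LPS by -0.33 ± 0.10, under the fold minimum. Csf1, the growth factor of macrophages, rose by 1.99 ± 0.21, Il1rn, the natural antagonist of interleukin-1, by 1.46 ± 0.08, and Osm, oncostatin M, by 1.11 ± 0.17, which the methods' t-test did not call. Other Csf1 probe sets, all under the filter, gave 0.11, 0.18 and 0.26. Of 23 cytokine genes on the array, 14 lay under the filter. Il1b, the gene for interleukin-1β, was among them with 3.15 and 3.22 in LPS+M cells, 3.09 and 3.08 in M cells, 5.90 and 5.41 in LPS cells and 3.10 and 3.08 in control cells. It was raised in LPS cells alone, and in the fit without a filter LPS+M compared to control was 0.09 ± 0.15 (adjusted p = 0.993), while LPS+M compared to LPS was -2.47 ± 0.15 (adjusted p = 0.00102). Il6 had 2.29 and 2.34 in LPS+M cells, against 2.31 and 2.29 in control cells, and Csf3 had 2.32 and 2.37 in LPS+M cells, against 2.35 and 2.32 in control cells, signals near the bottom of the range in every group.

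Chemokine genes split. Of 10 chemokine genes, 5 rose and 2 fell in LPS+M compared to control, with a median of 0.53, and compared directly with LPS none was higher and 6 were lower. Their median was -0.32 in M and 0.81 in LPS. Ccl3, a chemoattractant of monocytes and T cells, had 13.53 and 13.40 in LPS+M cells, 10.51 and 10.73 in M cells, 14.17 and 14.30 in LPS cells and 11.83 and 11.83 in control cells. Its LPS+M arrays lay above control and below LPS, and it rose by 1.64 ± 0.09 (adjusted p = 1.54e-05). Ccl12, which attracts monocytes, had 9.0 and 8.92 in LPS+M cells, 8.45 and 8.44 in M cells, 10.21 and 10.34 in LPS cells and 9.84 and 9.86 in control cells. It fell by 0.89 ± 0.07 below control (adjusted p = 6.34e-05), and the related Ccl2 fell by 0.75 ± 0.09 (adjusted p = 0.000783). Cxcl10, an interferon-inducible attractant of T cells, rose by 1.48 ± 0.13, Ccl5 by 0.73 ± 0.08, Ccl4 by 0.62 ± 0.12 and Cxcl2, an attractant of neutrophils, by 0.78 ± 0.12. Ccl4 was not called without LPS+M replicate 1 (0.46) or without control replicate 2 (0.54), and the methods' t-test did not call Cxcl2. The NF-κB consensus was in 3 of the 6 promoters of this list that RefSeq gave.

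Interferon-stimulated genes, which block viral replication, moved in both directions. Of 22 tested, 3 rose, 3 fell, 11 values lay above and 11 below 0, and the median was -0.04 in LPS+M, against -0.03 in M and 0.37 in LPS, and compared directly with LPS none was higher and 9 were lower. Their mean difference from control was 0.03 and 0.10 in the 2 LPS+M arrays and 0.81 and 0.85 in the 2 LPS arrays. Rsad2, which encodes the antiviral enzyme viperin, had 7.53 and 7.42 in LPS+M cells, 5.88 and 6.53 in M cells, 8.41 and 8.36 in LPS cells and 5.20 and 5.46 in control cells. It stood above control and below LPS, with a rise of 2.14 ± 0.19 (adjusted p = 0.000136). Ifit2, which binds viral RNA, had 7.76 and 7.78 in LPS+M cells, 7.77 and 7.91 in M cells, 9.27 and 9.14 in LPS cells and 8.53 and 8.44 in control cells. It was raised in LPS and lay below control in LPS+M, with a fall of 0.72 ± 0.08 (adjusted p = 0.000354). Usp18, which removes the modifier ISG15, fell by 0.71 ± 0.15 (adjusted p = 0.00945), which was 0.48 and not called without control replicate 2. Parp14 rose by 1.28 ± 0.08, and by 0.64 when its probe sets were averaged.

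The interferon-inducible GTPases, which attack the vacuoles of intracellular microbes, were partly raised. Of 8 tested, 3 rose and none fell over control, with a median of 0.12 in LPS+M and 1.27 in LPS, and 6 were lower in LPS+M than in LPS. The median in LPS+M was 0.01 without control replicate 1 and 0.25 without control replicate 2. Gbp2b had 6.11 and 6.44 in LPS+M cells, 4.10 and 3.94 in M cells, 7.83 and 7.86 in LPS cells and 4.10 and 4.17 in control cells. Its LPS+M arrays lay between control and LPS, with a rise of 2.14 ± 0.11 (adjusted p = 1.09e-05). Gbp2 rose by 1.79 ± 0.13 and Gbp3 by 1.71 ± 0.09, also below their LPS values of 3.02 ± 0.13 and 2.53 ± 0.09.

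Of 13 genes of antigen presentation and costimulation, which let macrophages instruct T cells, 6 rose and none fell in LPS+M, with a median of 0.43. Cd40, the receptor for T cell help, had 11.11 and 10.97 in LPS+M cells, 8.0 and 7.75 in M cells, 11.48 and 11.67 in LPS cells and 8.19 and 8.30 in control cells. It was high in both groups given LPS and rose by 2.80 ± 0.11 (adjusted p = 3.41e-06). Cd86, a ligand of CD28, had 10.32 and 10.21 in LPS+M cells, 10.24 and 10.20 in M cells, 9.07 and 8.96 in LPS cells and 9.08 and 9.11 in control cells. It was high in both groups given menthol and rose by 1.17 ± 0.07 (adjusted p = 1.96e-05). Icosl rose by 1.49 ± 0.20, which the methods' t-test did not call, Cd274, which encodes PD-L1, by 1.01 ± 0.15, and Nlrc5, a driver of MHC class I, by 0.59 ± 0.09. Another Icosl probe set, under the filter, gave 0.009. Nlrc5 was not called without LPS+M replicate 2 (0.55), without control replicate 1 (0.52) or with all arrays shifted to the same median (0.58).

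Of 11 tested genes of itaconate, nitric oxide, arginine and superoxide metabolism, which make effector products of activated macrophages, 6 rose and none fell, with a median of 0.85, and by the methods' t-test 3 rose. Odc1, the first enzyme of polyamine synthesis, had 13.97 and 14.06 in LPS+M cells, 13.52 and 13.48 in M cells, 13.29 and 13.29 in LPS cells and 12.50 and 12.35 in control cells, the LPS+M arrays being highest, and rose by 1.59 ± 0.07 (adjusted p = 5.67e-06). Gch1, which makes the cofactor of nitric oxide synthases, rose by 1.43 ± 0.10, and Slc7a2, an arginine carrier, by 1.29 ± 0.09, neither called by the methods' t-test. Sod2 rose by 1.12 ± 0.07 and Cybb, the catalytic subunit of the phagocyte oxidase, by 0.85 ± 0.08. Nos2, the inducible nitric oxide synthase, lay under the filter at 1.89 and 1.93 in LPS+M cells, against 1.92 and 1.90 in control cells. Of 12 acute-phase and antimicrobial genes 3 rose and 1 fell, with a median of -0.0007. Lcn2, an iron-scavenging lipocalin, rose by 2.75 ± 0.13, Slpi by 0.68 ± 0.08, and C5ar1, the complement C5a receptor, fell by 0.68 ± 0.13, which was 0.50 and not called without LPS+M replicate 1. Among 10 prostaglandin and leukotriene genes, 2 rose and 1 fell, with a median of -0.08. Ptgs2, cyclooxygenase-2, had 10.89 and 11.26 in LPS+M cells, 9.48 and 9.55 in M cells, 11.47 and 11.42 in LPS cells and 9.45 and 9.18 in control cells and rose by 1.76 ± 0.13 (adjusted p = 5.43e-05). Ptger2, a receptor for prostaglandin E2, had 9.88 and 9.99 in LPS+M cells, 10.08 and 10.09 in M cells, 8.33 and 8.35 in LPS cells and 8.30 and 8.5 in control cells, high in both groups given menthol, and rose by 1.54 ± 0.08 (adjusted p = 1.09e-05).

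Genes of the integrated stress response were higher as a group in LPS+M cells. Of 21 genes of this response and the unfolded protein response, 13 rose, none fell and the median was 0.97, against 10 risen and a median of 0.50 in M and 3 risen, 3 fallen and a median of -0.06 in LPS. Compared directly with LPS, 12 were higher in LPS+M and none was lower, and compared with M 4 were higher and none was lower. Ddit4, an inhibitor of mTORC1, had 9.14 and 9.12 in LPS+M cells, 9.19 and 9.21 in M cells, 6.05 and 6.04 in LPS cells and 6.64 and 6.93 in control cells. It was high in both groups given menthol, and rose by 2.34 ± 0.09 (adjusted p = 3.53e-06). Trib3, a pseudokinase target of ATF4 whose promoter is printed above, had 10.89 and 11.06 in LPS+M cells, 11.07 and 11.07 in M cells, 8.32 and 8.46 in LPS cells and 9.06 and 9.28 in control cells. It followed the same order and rose by 1.81 ± 0.10 (adjusted p = 1.32e-05). Gadd45a, a DNA damage and stress gene, rose by 1.42 ± 0.08. Sqstm1, the autophagy receptor p62, had 13.68 and 13.63 in LPS+M cells, 12.95 and 12.96 in M cells, 13.12 and 13.01 in LPS cells and 12.13 and 12.17 in control cells, with the LPS+M arrays highest, and rose by 1.51 ± 0.06 (adjusted p = 4.84e-06), and by 0.98 with the mean of its probe sets. Atf4 itself rose by 0.84 ± 0.09, Ddit3, which encodes CHOP, by 1.24 ± 0.10, and Chac1, a glutathione-degrading enzyme, by 1.32 ± 0.11. When probe sets were averaged, Atf4 was 0.58 and not called, and Ddit3 was 0.63.

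Genes that supply amino acids rose beside them. Of 17 genes of amino acid synthesis and transport, 9 rose and none fell, with a median of 0.68 in LPS+M, against 0.46 in M and 0.02 in LPS, and 10 were higher in LPS+M than in LPS. Slc6a9, a glycine carrier, had 8.64 and 8.46 in LPS+M cells, 8.06 and 8.24 in M cells, 7.21 and 6.89 in LPS cells and 6.77 and 6.82 in control cells. Both groups given menthol lay above the others, and it rose by 1.76 ± 0.12 (adjusted p = 3.22e-05), and by 0.90 with the mean of its probe sets. Slc1a4, a carrier of neutral amino acids, rose by 1.61 ± 0.09. Cth, which makes cysteine from cystathionine, rose by 1.57 ± 0.07, and Slc7a1, an arginine and lysine carrier, by 1.02 ± 0.06, which was 0.65 with the mean of its probe sets. Asns, asparagine synthetase, rose by 0.87 ± 0.06. Of 19 aminoacyl-tRNA synthetases 3 rose and none fell, with a median of 0.30. They were Cars at 0.85 ± 0.07, Aars at 0.69 ± 0.08 and Yars at 0.62 ± 0.09. Yars was 0.55 without LPS+M replicate 1 and 0.54 without control replicate 2, and was then not called. The methods' t-test called neither Cars nor Aars. The motif TGATGNAA was in 5 of 20 promoters of the stress response list and 3 of 14 of the amino acid list.

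Of the other stress genes, few chaperones and a part of the NRF2 list were called. Of 24 heat shock and endoplasmic reticulum chaperone genes, Hsph1, a cochaperone of HSP70, was the one called, at 0.61 ± 0.07, and it was 0.54 and not called without LPS+M replicate 2. Of 21 genes of the NRF2 response to oxidants, 4 rose and none fell, with a median of 0.10. They were Slc7a11, Srxn1, which repairs peroxiredoxins, at 1.28 ± 0.07, Osgin1 at 0.83 ± 0.11 and Txnrd1, thioredoxin reductase, at 0.63 ± 0.06, which was 0.32 and not called with the mean of its probe sets. Of 24 autophagy and lysosome genes, Gabarapl1 (0.83 ± 0.08) and Ulk1 (0.60 ± 0.15) rose, while Tfeb, a transcription factor of lysosome genes, fell by 0.98 ± 0.13. Ulk1 was not called without LPS+M replicate 2 (0.46), without control replicate 1 (0.54), with the mean of its probe sets (0.31) or in the fit without a filter.

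**Figure D3:**
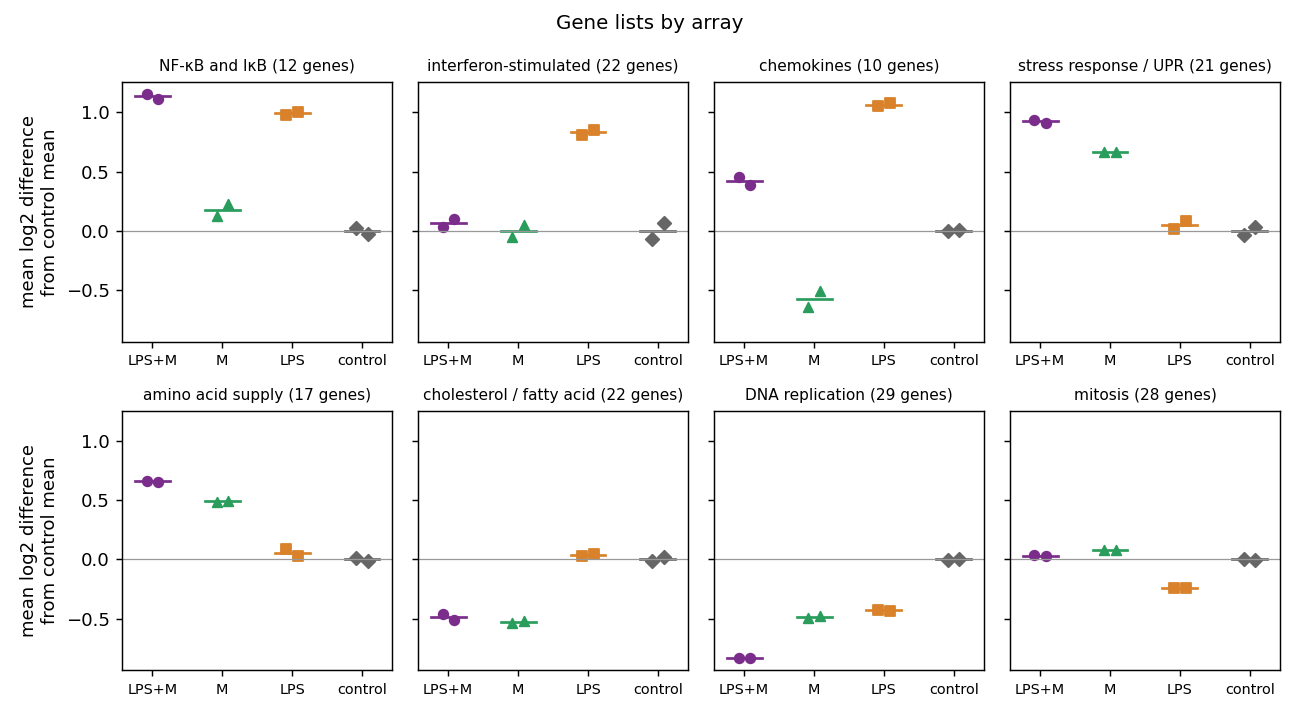
Mean over the tested members of 8 gene lists of the log2 difference from the control mean (y axis), for each of the 8 arrays, with a line at the mean of each group. The DNA replication list lies at -0.83 in both LPS+M arrays and the mitosis list at 0.04 and 0.02, and the interferon-stimulated list lies at 0.03 and 0.10 in LPS+M against 0.81 and 0.85 in LPS.

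DNA replication genes were lower as a group in LPS+M cells. Of 29, 19 fell, none rose and the median was -0.76, against 7 fallen and a median of -0.49 in M and 2 fallen and a median of -0.45 in LPS. All 29 log2 fold changes were below 0, with Cdt1 nearest to it at -0.23, while 49.1% of all tested genes were below 0. Compared directly with LPS 6 were lower and none was higher in LPS+M, and compared with M 3 were lower and none was higher. Cdc6, which loads the replicative helicase onto origins and whose promoter is printed above, had 7.34 and 7.59 in LPS+M cells, 8.66 and 8.64 in M cells, 9.07 and 9.24 in LPS cells and 9.64 and 9.60 in control cells. The LPS+M arrays were the lowest, below M and then LPS, and it fell by 2.16 ± 0.10 (adjusted p = 5.67e-06). Ccne2, cyclin E2, had 6.07 and 6.89 in LPS+M cells, 7.88 and 7.66 in M cells, 8.24 and 8.33 in LPS cells and 8.63 and 8.68 in control cells. Its LPS+M arrays were lowest and spread by more than those of the other groups, and it fell by 2.17 ± 0.22 (adjusted p = 0.000289). Ccne1, cyclin E1, fell by 1.45 ± 0.07 and Uhrf1, which recruits maintenance DNA methylation, by 1.29 ± 0.06. Mcm4, a subunit of the helicase, fell by 1.20 ± 0.07, and Mcm2, Mcm3, Mcm5, Mcm6, Mcm7 and Mcm10 fell as well. Rrm2, the nucleotide reductase subunit, fell by 1.17 ± 0.06, and E2f1, the transcription factor of this program, by 0.96 ± 0.12, or by 0.61 with the mean of its probe sets. Mcm5 and Mcm10 were each 0.56 lower and not called without LPS+M replicate 1, and Mcm6 was 0.50 lower and not called with the mean of its probe sets.

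Of 28 mitosis genes, none rose or fell and the median was 0.02, with values from -0.52 for Kif11, a spindle motor, to 0.41 for Cenpf, a kinetochore protein. Their median was 0.05 in M and -0.23 in LPS, and 2 were higher in LPS+M than in LPS. Without LPS+M replicate 2 there were 2 mitosis genes called lower. At an adjusted p under 0.05 with no fold minimum, 5 of the 28 mitosis genes were higher and 3 were lower, while 28 of the 29 replication genes were lower. At that cut, 1596 of all 8908 tested genes were higher and 1489 were lower. TTTNNCGC was in 11 of 24 promoters of the replication list and in 1 of 24 of the mitosis list. Of 29 ribosome biogenesis genes none was called, with a median of 0.04. Of 18 cell cycle regulators, Btg2, an antiproliferative factor, rose by 1.27 ± 0.17 and Ccnd2, cyclin D2, by 0.90 ± 0.13, while Cdkn2c, a CDK inhibitor, fell by 1.04 ± 0.07 and Rbl1, the p107 pocket protein, by 0.64 ± 0.07. Other Ccnd2 probe sets, all under the filter, gave 0.02 to 0.65. Rbl1 was not called without LPS+M replicate 1 (-0.57) or when its probe sets were averaged (-0.30). The arrays cannot tell a lower share of cells in S phase from less RNA per cell.

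Cholesterol and fatty acid synthesis genes were lower. Of 22, 6 fell, none rose and the median was -0.52, against -0.56 in M and 0.04 in LPS, and 8 were lower in LPS+M than in LPS while none differed from M. All 22 values were below 0, against 49.1% of all tested genes. At an adjusted p under 0.05 with no fold minimum 19 were lower, beside 1489 of all 8908 tested genes. Idi1, an isomerase of isoprenoid synthesis, had 10.31 and 10.46 in LPS+M cells, 10.29 and 10.26 in M cells, 11.64 and 11.71 in LPS cells and 11.50 and 11.47 in control cells. It was low in both groups given menthol and fell by 1.10 ± 0.07 (adjusted p = 2.56e-05). The other 5 were Hmgcs1 (-0.66 ± 0.10), Cyp51 (-0.63 ± 0.09), Insig1 (-0.62 ± 0.09), Nsdhl (-0.60 ± 0.08) and Acaca (-0.59 ± 0.09), and 3 genes of the list were called without LPS+M replicate 2 and 3 without control replicate 2. With the mean of probe sets Hmgcs1 (-0.56), Cyp51 (-0.52) and Acaca (-0.30) were not called. Without LPS+M replicate 1 Hmgcs1 was -0.52 and Acaca -0.50, both under the fold minimum. Abca1, which exports cholesterol, was the one called gene of 12 LXR targets, with 10.24 and 10.33 in LPS+M cells, 11.10 and 10.95 in M cells, 8.84 and 8.65 in LPS cells and 9.22 and 9.38 in control cells. It was highest in M, and rose by 0.99 ± 0.09 in LPS+M (adjusted p = 0.000204), which was 0.37 and not called with the mean of its probe sets.

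**Figure D4:**
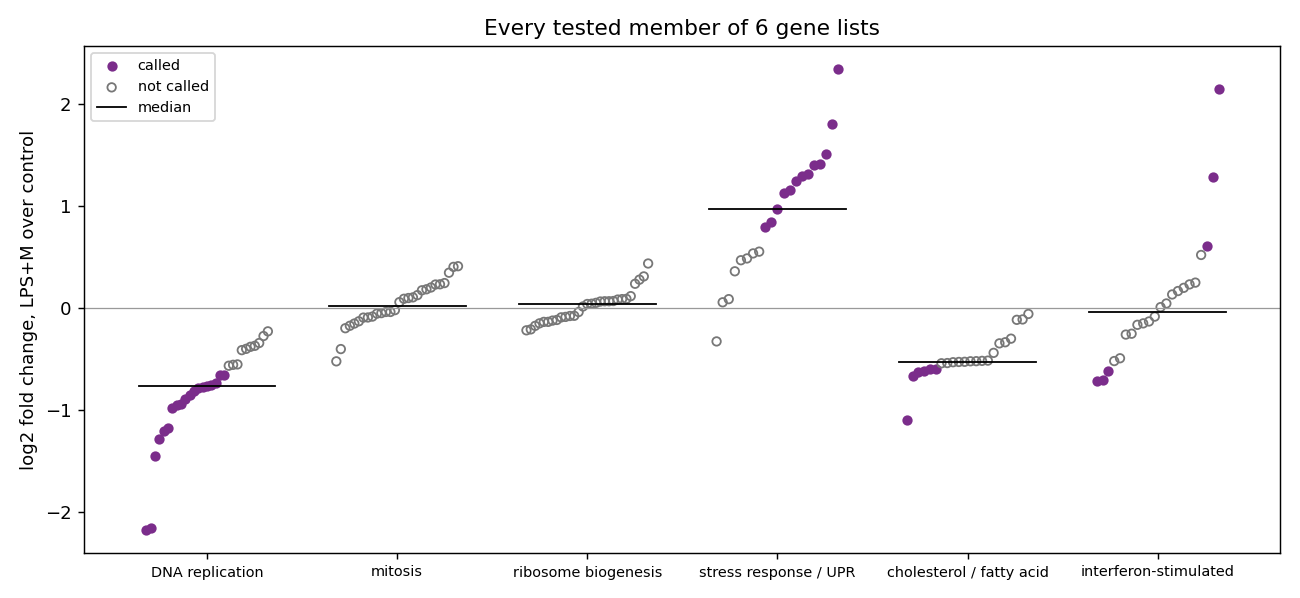
Log2 fold change of LPS+M over control (y axis) for every tested member of 6 gene lists, filled where called and open where not, with a line at the median. All 29 DNA replication genes lie below 0, from -2.17 to -0.23, while the 28 mitosis genes lie between -0.52 and 0.41 with none called.

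Of 22 glycolysis and hypoxia genes 3 rose and none fell, with a median of 0.11. Slc2a1, the glucose carrier GLUT1, had 14.63 and 14.57 in LPS+M cells, 14.16 and 14.08 in M cells, 14.05 and 14.09 in LPS cells and 13.45 and 13.43 in control cells, the LPS+M arrays being highest, and rose by 1.16 ± 0.06 (adjusted p = 1.28e-05). Hk2, hexokinase 2, rose by 1.11 ± 0.06 and Ero1a, an oxidase of protein folding, by 1.11 ± 0.08. Of 27 genes of oxidative phosphorylation and the citrate cycle, Ogdh was the one called, at -0.59 ± 0.09, and it was not called without LPS+M replicate 2 (-0.55) or without control replicate 1 (-0.57), nor with the mean of its probe sets (-0.45). Of these 27 values 25 were below 0, and 7 were lower at an adjusted p under 0.05 with no fold minimum. Over all 8908 tested genes, 49.1% were below 0 and 1489 were lower at that cut.

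Of 27 cell death regulators, 6 rose and 1 fell, with a median of 0.17, and 2 of those that rose encode receptors of the tumor necrosis factor family. Fas had 7.81 and 7.48 in LPS+M cells, 4.94 and 5.22 in M cells, 8.13 and 8.14 in LPS cells and 4.83 and 5.37 in control cells, high in both groups given LPS, and rose by 2.55 ± 0.18 (adjusted p = 5.17e-05). Tnfrsf1b, a receptor of tumor necrosis factor, rose by 2.15 ± 0.08, and by 1.32 with the mean of its probe sets. Casp4, the sensor of cytoplasmic LPS, rose by 1.78 ± 0.10 and Bmf by 1.10 ± 0.13, while Bcl2, the survival factor, fell by 0.85 ± 0.09, which was 0.39 and not called with the mean of its probe sets. Of 14 immediate early genes 4 rose and 2 fell, with a median of 0.11. Maff, a small Maf protein, rose by 1.28 ± 0.11, Ier3 by 1.22 ± 0.07, Fosl2 by 0.96 ± 0.09 and Junb by 0.87 ± 0.08. Fos fell by 0.61 ± 0.15 and Plk2, a stress-inducible kinase, by 0.61 ± 0.06. Neither was called without LPS+M replicate 1 (Fos -0.56, Plk2 -0.58), Fos was not called without control replicate 1 (-0.35) or in the fit without a filter, and Plk2 was not called without control replicate 2 (-0.57) or with the mean of its probe sets (-0.30). Of 27 macrophage transcription factors, Klf2 and Maf fell, while Cebpa, a myeloid factor, rose by 1.23 ± 0.25 and Ets2 by 0.69 ± 0.06.

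Surface receptors and adhesion molecules also differed from control. Of 19 scavenger, lectin and phagocytic receptors 4 rose and 2 fell, with a median of -0.03. Clec4e, the lectin Mincle, had 14.16 and 13.99 in LPS+M cells, against 12.82 and 12.96 in control cells, and rose by 1.18 ± 0.08 (adjusted p = 4.26e-05). Fcgr2b, the inhibitory receptor for IgG, rose by 0.90 ± 0.07, while Fcgr1, the high-affinity receptor, fell by 0.73 ± 0.10, which was 0.57 and not called without control replicate 2. Of 12 G protein-coupled receptors 4 rose and 2 fell, with a median of 0.20, among them Gpr84, a receptor of fatty acids, at 1.15 ± 0.07 and Gpr85 at 0.83 ± 0.08. Hcar2, the niacin and ketone body receptor, lay under the filter and was singled out after its values were seen. It had 6.5 and 6.30 in LPS+M cells, 2.40 and 2.39 in M cells, 6.12 and 6.01 in LPS cells and 2.74 and 2.38 in control cells, high in both groups given LPS. No fold change is given, since its M and control signals lay under the array medians. Of 22 adhesion and matrix genes 4 rose and 3 fell, with a median of 0.05. Icam1, the ligand of leukocyte integrins, had 12.23 and 12.20 in LPS+M cells, 9.88 and 9.91 in M cells, 11.49 and 11.45 in LPS cells and 9.72 and 9.71 in control cells, and rose by 2.50 ± 0.06 (adjusted p = 6.53e-07). Plaur, the urokinase receptor, rose by 0.95 ± 0.07 while its ligand Plau fell by 1.37 ± 0.07, and Itga5, the fibronectin receptor subunit, rose by 1.25 ± 0.17, or by 0.75 with the mean of its probe sets. Of 7 osteoclast genes, which this line can induce, Fosl2 rose, and Tnfrsf11a, the receptor RANK, and the fusion receptor gene Dcstamp fell by 0.68 ± 0.11 and 0.64 ± 0.09. Tnfrsf11a was not called without LPS+M replicate 1 (-0.52), nor Dcstamp without control replicate 1 (-0.51).

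Of the genes named so far, the methods' t-test also did not call Tnfaip3, Dusp1, Ccl2, Ccl4, Usp18, Cybb, Slpi, C5ar1, Ddit3, Chac1, Hsph1, Osgin1, Gabarapl1, Ulk1, Mcm2, Mcm3, Mcm5, Mcm6, Mcm10, Ccnd2, Hmgcs1, Insig1, Nsdhl, Acaca, Bcl2, Junb, Fos, Cebpa, Fcgr1, Tnfrsf11a or Dcstamp.

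Some genes reached a level in LPS+M cells beyond that of all 3 other groups. By a test that takes, for each gene, the largest p of the comparisons with control, M and LPS, 24 genes (0.269%) lay above and 21 (0.236%) below all 3, by at least 1.5-fold each. Cd83 led the first set, followed by Ccrl2, an atypical receptor that binds chemerin, which had 8.60 and 8.57 in LPS+M cells, 6.22 and 6.36 in M cells, 6.75 and 6.86 in LPS cells and 5.72 and 5.53 in control cells. Its LPS+M arrays exceeded the next group by 1.78 ± 0.09. Rab11fip1, a factor of endosome recycling, had 6.81 and 6.81 in LPS+M cells, 5.01 and 5.12 in M cells, 4.94 and 5.13 in LPS cells and 4.72 and 4.19 in control cells, again with the LPS+M arrays alone on top. The methods' t-test did not call it in LPS+M compared to control. Tpbg had 9.52 and 9.50 in LPS+M cells, 6.45 and 6.24 in M cells, 7.82 and 8.07 in LPS cells and 5.79 and 5.41 in control cells. Slc7a11, Bcl3, Gpr18 and Maff completed the 8 genes with the largest smallest difference. Maff had 5.61 and 5.83 in LPS+M cells, 4.62 and 4.62 in M cells, 4.66 and 4.70 in LPS cells and 4.28 and 4.59 in control cells, the LPS+M arrays being the highest.

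Below all 3 groups, Klhl6 led with 6.08 and 6.06 in LPS+M cells, 7.61 and 7.67 in M cells, 7.43 and 7.44 in LPS cells and 7.99 and 8.03 in control cells. Its LPS+M arrays lay 1.36 ± 0.06 below LPS and 1.57 ± 0.06 below M. Ccne2, Pram1, Cdc6, Wdhd1, Ung, Rab3il1 and Ccne1 were next, of which Ccne2, Cdc6, Wdhd1 and Ccne1 act in the entry to or course of DNA synthesis. Pram1 had 5.07 and 5.23 in LPS+M cells, 6.38 and 6.39 in M cells, 6.41 and 6.46 in LPS cells and 6.92 and 7.08 in control cells, and Wdhd1 had 5.99 and 5.82 in LPS+M cells, 7.0 and 7.06 in M cells, 7.26 and 7.30 in LPS cells and 7.78 and 8.16 in control cells, both lowest in LPS+M. Of the 24 genes above, Cd83 and Maff had means of 4.71 and 4.58 over the other 3 groups, under the filter, and so were tested through their LPS+M arrays. Both were also called above all 3 in the fit without a filter, where Bcl3, Gpr18, Ccne2 and Wdhd1 were not called. The size of both sets depended on single arrays. The count above all 3 was 11 without LPS replicate 1, 12 without LPS replicate 2, 15 without M replicate 1 and 15 without M replicate 2. The count below all 3 was 32 without LPS+M replicate 2, 9 without M replicate 1, 10 without M replicate 2, 11 without LPS replicate 1, 10 without LPS replicate 2, 12 without control replicate 1 and 12 without control replicate 2.

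The interaction of menthol and LPS, the net change minus the sum of the separate changes on the log2 scale, was tested for the 24 leading genes, with 0.0337% of all tested genes called above and 0.202% below a sum. Cd83 exceeded the sum by 2.38 ± 0.24 (adjusted p = 0.0182), while Saa3 at -1.66 ± 0.15 (adjusted p = 0.0145) and Klhl6 at -1.0 ± 0.08 (adjusted p = 0.0105) lay below it. The other 21 were not called. In the fit without a filter Klhl6 alone of the 24 was called. Cd83 had a mean of 4.71 over the other 3 groups, under the filter, so it was tested through its LPS+M arrays and was not called without a filter or, being left out, with a filter of 6. Cd83 was also not called without LPS+M replicate 1 or without either M replicate, Klhl6 without M replicate 2 or control replicate 1, and Saa3 without control replicate 1.

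Other genes that 1 agent changed were near the control level in LPS+M cells, which is given as a description with no test. Of 546 genes called in LPS compared to control, 109 had a 95% interval of LPS+M over control within 1.5-fold either way, 44 that rose and 65 that fell in LPS. Of 405 genes called in M compared to control 53 did, 36 that rose and 17 that fell in M. Cytip, a regulator of leukocyte adhesion, was in both sets, with 9.02 and 8.94 in LPS+M cells, 11.21 and 11.23 in M cells, 7.32 and 7.47 in LPS cells and 9.21 and 9.34 in control cells. It was raised in M and lowered in LPS, and LPS+M lay near control at -0.30 ± 0.08. A second Cytip probe set above the filter gave -0.63, outside the 1.5-fold range, so its place near control holds for 1 of its probe sets. Cxcr4, the receptor of CXCL12, had 11.87 and 11.89 in LPS+M cells, 12.61 and 12.52 in M cells, 10.66 and 10.38 in LPS cells and 12.01 and 11.91 in control cells, likewise higher in M, lower in LPS and near control in LPS+M. Gbp7, an interferon-inducible GTPase, had 4.59 and 4.64 in LPS+M cells, 3.74 and 4.36 in M cells, 6.62 and 6.35 in LPS cells and 4.6 and 4.63 in control cells, raised in LPS alone. Gpr31b, a G protein-coupled receptor, had 8.77 and 8.68 in LPS+M cells, 7.42 and 7.54 in M cells, 10.30 and 10.21 in LPS cells and 8.35 and 8.35 in control cells and ran the other way, lower in M and higher in LPS. Pxdc1 and Fam241a were the other 2 named of the LPS set. Pde3b, a phosphodiesterase of cyclic AMP, had 6.80 and 6.64 in LPS+M cells, 8.29 and 8.33 in M cells, 5.5 and 6.28 in LPS cells and 6.67 and 6.64 in control cells, raised in M and spread widely in LPS. Ctla2a, a cathepsin inhibitor, Nr4a2, an orphan nuclear receptor, and Ypel3 were raised in M, and A430093F15Rik was lowered. Of these genes, Gpr31b (0.38 ± 0.07, adjusted p = 0.00463) and Cytip (adjusted p = 0.0188) passed the adjusted p against control without reaching 1.5-fold, so near the control level does not mean equal to it.

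**Figure D5:**
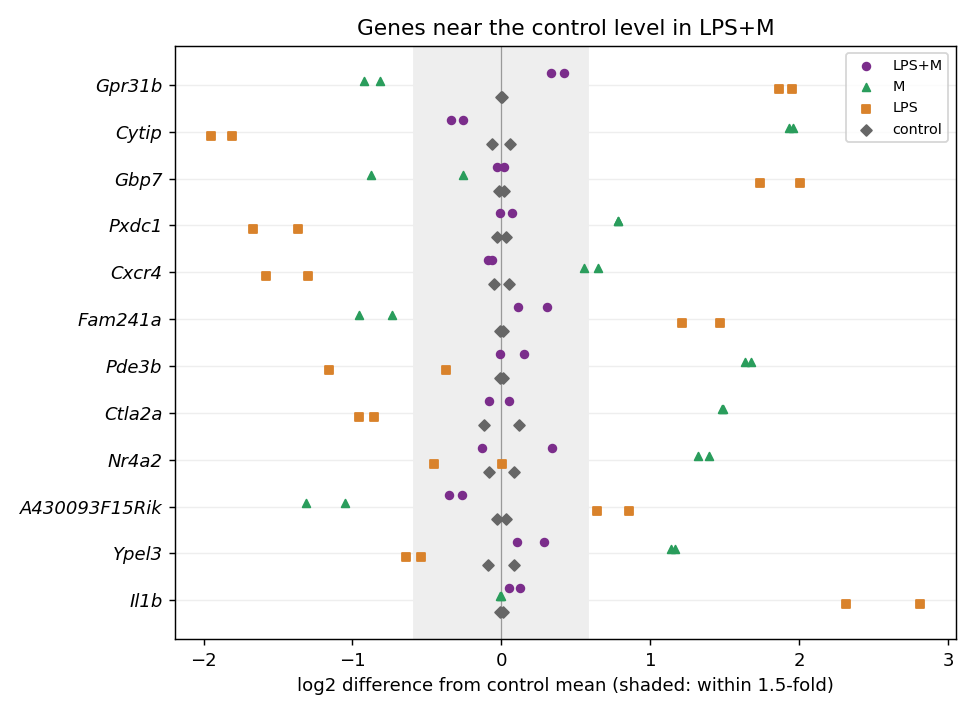
Log2 difference from the control mean (x axis) of 11 genes that LPS or menthol alone changed and that lay near control in LPS+M, and of Il1b, with 1 marker for each of the 8 arrays and the range within 1.5-fold shaded. Cytip averages -0.30 in LPS+M cells, with M at 1.94 to the right and LPS at -1.88 to the left.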

How the data were processed

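Total RNA of RAW 264.7 cells was hybridised to Affymetrix whole-genome mouse arrays. The authors deposited log2 signals of 45101 probe sets after GC-RMA (the submitters' processing notes name GCRMA 2.10.0 and R version 2.6.1). GC-RMA corrects background by probe GC content and sets the probe intensities of all arrays to 1 distribution before probe sets are summarized. Probe sets were named from the platform annotation, 34945 with 1 symbol, 932 with several and 9160 with none, and 64 were array controls. The probe set with the highest mean stood for a gene. Genes under the mean of all probe sets (4.84) were left out. All 8 arrays in 4 groups were fitted with limma 3.58.1 in R 4.3.3 (lmFit and eBayes, 4 residual degrees of freedom), with Benjamini-Hochberg adjustment. Precision is limited by having 2 arrays per group. The fit was tested on simulated data.

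The text names the 12 largest rises and falls, up to 4 called members per list, up to 8 genes beyond all 3 other groups in each direction and up to 6 near control per agent. Other called members are named to fill out a list's count. The comparisons and lists were chosen with earlier results of these data known. Alternatives covered the filter, probe set choice, normalization, test, fold minimum, replicate block and leaving out each array. Promoter sequences matched 7362 of the 8908 genes tested. The authors' files gave 0 columns that could not be assigned to a sample.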

Additional observations from a re-analysis of the deposited data

Results flagged for a closer look

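For 7 named genes the LPS effect differed between cells with and without menthol by limma's interaction term. The effect with menthol exceeded that without by 2.38 on the log2 scale for Cd83 (adjusted p = 0.0182) and by 1.12 for Ccrl2 (adjusted p = 0.0182). For Klhl6 it was the more negative, with a difference of -1.0 (adjusted p = 0.0105) between -1.57 with menthol and -0.57 without. For the other 4 it was lower by a difference of -1.66 for Saa3 (adjusted p = 0.0145), -0.80 for Ifit2 (adjusted p = 0.0419), -1.68 for Usp18 (adjusted p = 0.0419) and -1.45 for Gbp2b (adjusted p = 0.0182). Cd83 and Saa3 were not called for this term in the fit without a filter. Changes with single arrays left out are given above for Cd83, Saa3 and Klhl6. For Ccrl2, Ifit2, Usp18 and Gbp2b this term was not checked under the alternatives.

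Probe sets with no gene symbol or several were outside every comparison above. Of 1313 of them above the filter, 52 were higher and 79 were lower in LPS+M than in control.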

How the results depend on the processing

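Of 2168 values of 129 named genes under alternatives, 1954 kept their direction and call, 210 lost the call, 2 gained it, 2 (Ctla2a without control replicate 1 at 0.0981 and without control replicate 2 at -0.1342) moved, and none of the called genes changed direction. Of the lost calls, 117 came with the methods' t-test after adjustment, 36 with a 2-fold minimum and 30 with the unadjusted t-test. A gene whose averaged probe sets lay under the filter had no value for that setting. Csf1, Traf1, Pstpip2, Icosl, Ccnd2, Bmf, Rab11fip1 and Cd244a were among these, so their calls were not checked by averaging.

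Compared to control (493 higher, 383 lower), 314 were higher with the mean of a gene's probe sets. Taking every probe set by itself gave 783 and 777, the methods' t-test 307 and 196 at its unadjusted p and 0 and 0 after Benjamini-Hochberg, no fold minimum 1596 and 1489, and a 2-fold minimum 176 and 92. Compared with LPS the same settings gave 218 higher, then 618 and 490, 181 and 107, 0 and 0, 1542 and 1018, and 84 and 52. Compared with M, the mean of probe sets gave 100 lower, every probe set 322 and 242, the methods' t-test 72 lower unadjusted and 0 and 0 adjusted, no fold minimum 583 and 685, and a 2-fold minimum 98 and 38.

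Above and below all 3 groups (24 and 21), no filter gave 15 and 9, the mean of probe sets 14 and 12, the methods' t-test 11 and 9 unadjusted and 0 and 0 adjusted, fits of only the groups compared 9 and 8, no fold minimum 56 and 41, and a 2-fold minimum 8 and 6. Of the 24 leading genes, 3 were called for the interaction, 1 with no filter, 14 at an unadjusted p and 6 with a trended and robust prior.

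Leaving out 1 array at a time gave 476 to 530 higher and 365 to 441 lower than control, 364 to 428 and 201 to 287 against LPS, 198 to 228 and 121 to 202 against M, 11 to 33 above and 9 to 32 below all 3 groups, and 1 to 6 interaction calls. Arrays shifted to the same median gave 475 higher and 398 lower than control.

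Same-numbered arrays did not deviate together (correlations -0.121 to 0.186), so the replicate number is only a number, and the replicate block gave 494 higher and 386 lower than control, of which 493 and 382 were called without it. Crossed pairing of LPS+M and control arrays, chosen after seeing the data, gave 495 and 385.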
